A study of Mus musculus with 56 samples.

Results

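The 10 genes followed here are the endoplasmic reticulum (ER) folding and stress genes Hspa5, Hsp90b1, Calr, Pdia3, Pdia4, Pdia6, Txndc5, Xbp1, Atf4 and Ddit3. They were taken by symbol from a count table of 55011 genes, and each symbol matched 1 row. The rule did not use their measured values, but it was set with earlier results of these data known. In the annotation used for exon lengths the symbol Ddit3 has 2 gene identifiers, and whether its row joins both is not stated. All 10 passed the filter on low counts in each fit below. The table holds 56 mouse libraries of regulatory T cells (Tregs), the Foxp3-expressing CD4+ T cells that restrain inflammation, made in a study of obesity.

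Ex vivo libraries came from C57BL/6 vTreg53 Tg+ mice, which carry a transgenic T cell receptor, and each holds Tregs sorted for that receptor's clonotype from spleen or from visceral adipose tissue (VAT), so they sample 1 receptor specificity. Feeding with normal chow diet (NCD) or high-fat diet (HFD) began at 12 weeks of age and lasted 2, 4, 8 or 16 weeks, and a week 0 group, whose labels name no diet, was also sorted. Each of the 18 ex vivo groups has 2 or 3 libraries, 26 from spleen and 25 from VAT. The titles separate spleen from VAT, whereas the tissue tag reads VAT for every library, and the titles were followed. The 5 culture libraries came from another line on the same strain, PPARgamma-tdT KI/KI mice that also carried Foxp3-GFP KI/y, aged 8 to 10 weeks and given 2 injections of the alarmin IL-33. PPARgamma reporter-positive VAT Tregs of these mice were held in IL-2 (2000 U/ml) plus IL-33 (10 ng/ml) for 3 days, with (2 libraries) or without (3 libraries) 50 ng/ml of the antiviral cytokine IFNa, and Foxp3-GFP+ cells were then re-sorted. No label says that replicates are separate mice or cultures, so the p-values measure the spread between these libraries, which may be partly technical. In sorted bulk samples, fewer cells of a type and less RNA per cell cannot be told apart.

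Proteins entering the ER are folded by lumenal chaperones and by disulfide isomerases, and a surplus of unfolded protein is sensed by 3 membrane proteins, IRE1 (Ern1), PERK (Eif2ak3) and ATF6. IRE1 splices Xbp1 mRNA into the form that encodes an active transcription factor, ATF6 and XBP1 induce chaperone and degradation genes, and PERK phosphorylates eIF2alpha, which favours translation of ATF4 and induction of its target Ddit3 (CHOP). Other eIF2alpha kinases reach ATF4 as well, in the wider integrated stress response (ISR). Gene counts show transcript abundance only: they do not separate spliced from unspliced Xbp1 and do not show ATF4 protein.

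Libraries were 3248686 to 6091439 assigned reads deep ex vivo and 5408696 to 8764390 in culture. Foxp3 was present in all 56 libraries, at 633 to 1474 normalised CPM, the usual depth-scaled count, here with library sizes adjusted by the TMM method over the 56 libraries. Pparg, the defining regulator of VAT Tregs, was at 18.1 to 129 CPM in VAT, at 0 to 7.11 in spleen and at 4.58 to 9.05 in the cultures, although the cultured cells were sorted by its reporter. Among the ex vivo libraries, summed plasma cell markers were at 100 CPM or more in 8 of VAT and 3 of spleen, and all 5 cultures were above that level as well. The tissue comparison and the means over weeks were refitted without the 11 ex vivo libraries.

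Promoter sequences of all 10 genes were found in the RefSeq table of mouse build GRCm38.p6, as windows from 250 bases before to 50 bases after each start. The windows of 1 chromosome, which holds none of the 10 genes, were left out of all motif counts. The stretches below are shown because 4 of the 10 genes share a single short element. That element was known from studies of ER stress and the genes were chosen for that process, so the count is not a test. The ER stress response element (ERSE), searched on both strands as CCAAT and CCACG with 9 bases of any kind between them, was in 39 of 32851 promoter windows (0.119%) and in those of Hspa5, Hsp90b1, Calr and Pdia6. The Hsp90b1 window held it at 2 places. In the lines below the capitals mark the element, and the strand is that of the gene.
Hspa5 (chr2:34772015-34772053, plus strand): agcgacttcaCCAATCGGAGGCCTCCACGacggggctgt
Hsp90b1 (chr10:86705628-86705666, minus strand): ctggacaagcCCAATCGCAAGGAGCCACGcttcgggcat
Hsp90b1 (chr10:86705523-86705561, minus strand): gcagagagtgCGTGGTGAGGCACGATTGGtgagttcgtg
Calr (chr8:84847065-84847103, minus strand): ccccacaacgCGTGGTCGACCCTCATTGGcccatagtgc
Pdia6 (chr12:17266481-17266519, plus strand): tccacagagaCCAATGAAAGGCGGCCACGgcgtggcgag
The first Hsp90b1 element and those of Hspa5 and Pdia6 read forward, and the second Hsp90b1 element and that of Calr read on the opposite strand. A further element, the unfolded protein response element TGACGTGG, was in 222 windows (0.676%) and, among these genes, in 1 of the Txndc5 windows, where the capitals mark it. That window lies inside the annotated gene, and the Txndc5 windows farther upstream held none of the searched elements.
Txndc5 (chr13:38528035-38528062, minus strand): gcctcgccgcTGACGTGGcgctagccgc
Neither the ERSE-II letters, ATTGG and CCACG with 1 base between them (0.0365% of windows) nor the amino acid response element TGATGCAA (0.895%) occurred in the windows of the 10 genes. A match of letters is a description of the window and not a binding site. Sequence more than 250 bases before a start was not searched, so elements there would be missed.

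Per kilobase of exon, median ex vivo levels spanned a wide range. Pdia3, a disulfide isomerase of the glycoprotein folding cycle, was highest, at 267 CPM per kb in spleen and 346 in VAT. Hspa5, the ER Hsp70 chaperone BiP, followed, at 173 in spleen and 262 in VAT. The lowest were Txndc5, a thioredoxin-domain isomerase, at 13.7 and 15.5, and Ddit3, which encodes the stress transcription factor CHOP, at 20.7 and 12.2. These 2 genes changed places between the tissues: Ddit3 was above Txndc5 in spleen and below it in VAT.

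In the comparison of tissues without HFD (14 spleen and 14 VAT libraries, week 0 and NCD), 9 of the 10 genes were higher in VAT Tregs and Ddit3 was lower. Over all 15601 genes tested, 59.1% were called at an adjusted p under 0.05, 29.1% higher in VAT and 30% lower, so a call in this comparison was common. Log2 differences are given ± SE here and below. Hspa5 ranged from 620.5 to 879 normalised CPM (median 703) in spleen and from 896 to 1327 (median 1124) in VAT. Every VAT library was above every spleen library, and ranges without overlap, in either direction, were found for 11.1% of all genes tested. The log2 difference of Hspa5 was 0.61 ± 0.056, edgeR adjusted p = 6.91e-13. Hsp90b1, the ER Hsp90 chaperone GRP94, ranged from 326 to 538 normalised CPM (median 396) in spleen and from 478 to 786 (median 605) in VAT. Its ranges overlapped at their edges, and the log2 difference was 0.63 ± 0.059. Calr, the calcium-binding lectin chaperone calreticulin, ranged from 162 to 233 normalised CPM (median 211) in spleen and from 222 to 341 (median 269) in VAT, a log2 difference of 0.41 ± 0.058 with overlapping ranges.

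Of the disulfide isomerases, Txndc5 differed most in the fit with all libraries. The log2 difference was 0.36 ± 0.047 for Pdia3, 0.53 ± 0.07 for Pdia6 and 0.25 ± 0.05 for Pdia4, and the ranges of all of them overlapped. Pdia4, which has 3 thioredoxin-like active domains, was the least changed and lost its call when libraries were scaled by total counts (0.04, edgeR adjusted p = 0.503). Txndc5 ranged from 24.7 to 71.6 normalised CPM (median 42.4) in spleen and from 38.2 to 231 (median 83.9) in VAT, a log2 difference of 0.89 ± 0.19. Without the 8 of these libraries that were high in plasma cell markers (7 of VAT and 1 of spleen), its difference was 0.45, edgeR adjusted p = 0.0189. All 10 calls held without those 8 libraries, with Hspa5 at 0.53 and Atf4 at 1.20.

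Among the transcription factors, Atf4 had the largest difference of the 10 genes in this comparison. It ranged from 91.0 to 145 normalised CPM (median 114) in spleen and from 192 to 292 (median 261) in VAT. The ranges did not overlap, which was so for 11.1% of all genes tested, and the log2 difference was 1.22 ± 0.066, edgeR adjusted p = 8.17e-21. Ddit3, a transcriptional target of ATF4, went the other way: it ranged from 29.8 to 51.2 normalised CPM (median 37.1) in spleen and from 15.7 to 27.8 (median 20.2) in VAT, again without overlap. Its log2 difference was -0.85 ± 0.11, edgeR adjusted p = 2.4e-09. Xbp1 ranged from 37.8 to 162 normalised CPM (median 134) in spleen and from 116 to 331 (median 238) in VAT, with overlap, and differed by 1.05 ± 0.14. Spleen Xbp1 was uneven at week 0, at 37.8, 78.2 and 139.6 CPM in the 3 libraries.

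In the 9 matched conditions (week 0 and both diets at 4 times), the VAT group mean was above the spleen group mean in 9 of 9 for Hspa5, Hsp90b1, Calr, Pdia3, Pdia4, Pdia6, Xbp1 and Atf4, and in 0 of 9 for Ddit3. Txndc5 was higher in VAT in 5 of 9: at week 0, at weeks 2, 4 and 8 on NCD and at week 2 on HFD. TMM scaling moved VAT against spleen by 0.21 on the log2 scale relative to total counts. All 10 genes kept their direction under total-count scaling.

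**Figure D1:**
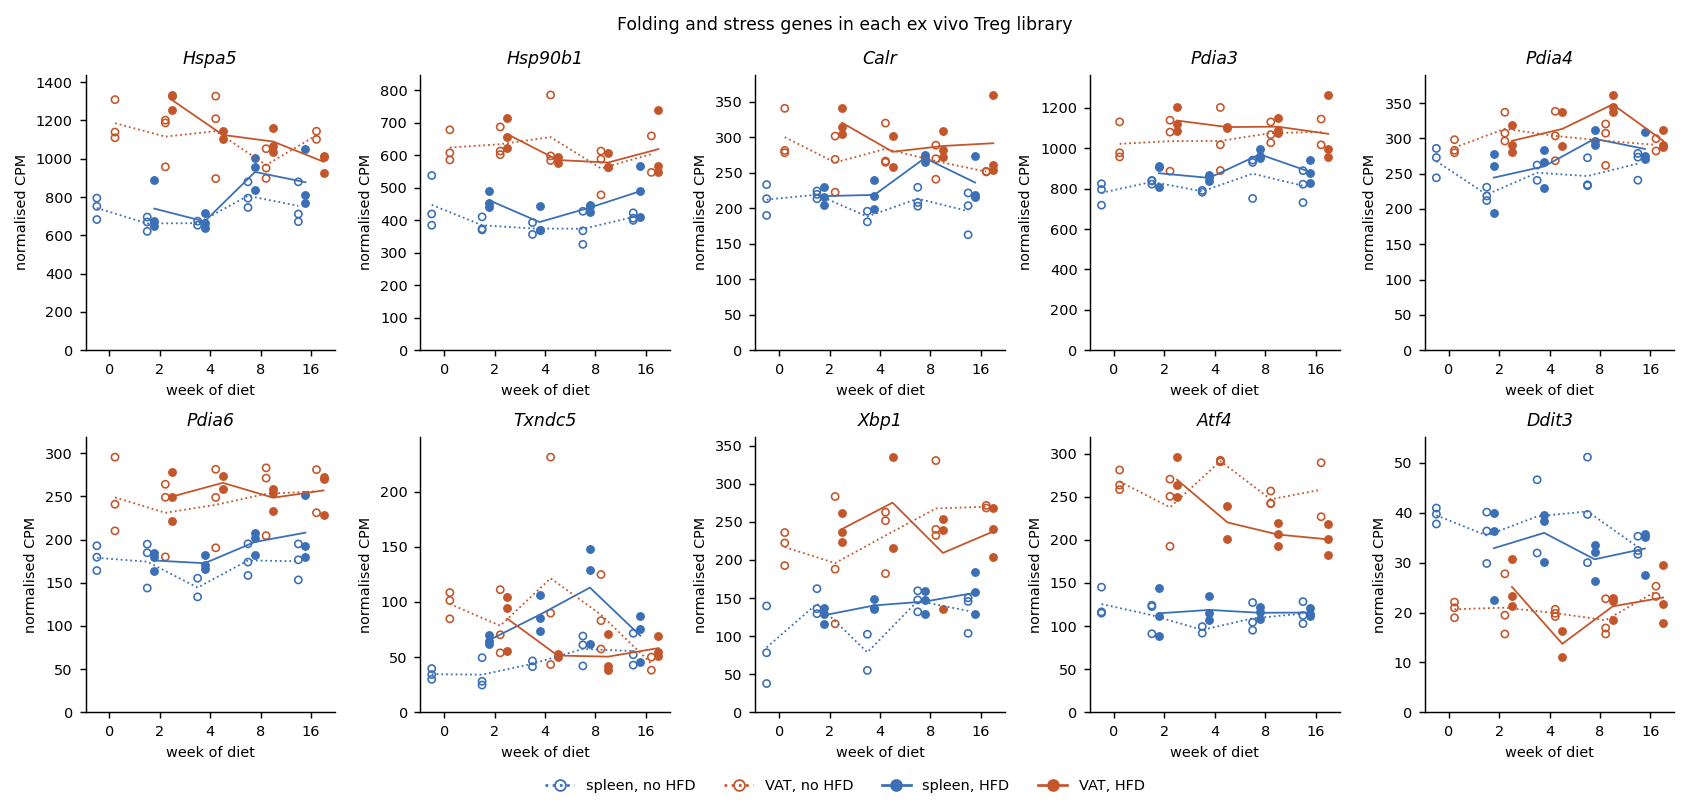
Each panel plots 1 gene in normalised CPM (vertical axis, from 0) against week of diet (horizontal axis, evenly spaced categories), with 1 point per library, blue for spleen and orange for VAT, open for week 0 and NCD and filled for HFD, and lines through group means. VAT points lie above spleen points for Atf4 and below them for Ddit3 at week 0 and on NCD, and the filled blue Txndc5 points rise to 148 CPM at week 8.

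The other genes of the pathway were described from 8 lists. Beside their counts stand the 29.1% of all genes called higher in VAT and the 30% called lower. Of 15 other ER chaperones, cochaperones and lectins tested, 9 were higher in VAT and 2 lower, with a median log2 difference of 0.44 beside -0.04 over all genes. Under total-count scaling 9 were higher and 4 lower, with a median of 0.23 beside -0.26. Dnajb9, a BiP cochaperone induced by XBP1, differed by 1.34 ± 0.089, Sdf2l1, a BiP-associated factor, by 1.29 ± 0.16, and Dnajc3, the P58IPK cochaperone, by -0.79 ± 0.057. 6 of 11 other ER oxidoreductases were higher and none lower (4 and 2 under total-count scaling). Ero1l, the oxidase that recharges disulfide isomerases, was at 137 CPM in VAT and 27.1 in spleen (2.39 ± 0.12), the peroxiredoxin Prdx4 differed by 1.06 ± 0.12, and the membrane thioredoxin Tmx1 by 0.52 ± 0.063.

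Genes of ER-associated degradation were mixed: 7 of 15 were higher and 4 lower (median 0.23), and under total-count scaling 4 were higher and 7 lower. Over all genes, 29.1% were called higher and 30% lower. Herpud1, an adaptor of the degradation complex, differed by 0.77 ± 0.044, the ubiquitin-conjugating enzyme Ube2j1 by 0.76 ± 0.064, and Edem1, which selects misfolded glycoproteins, by -0.63 ± 0.068. Among 8 stress sensors and proteases, 4 were higher and 2 lower (2 and 2 under total-count scaling). Atf6 was at 124 CPM in VAT and 37.5 in spleen (1.75 ± 0.096), Ern1 at 26.9 and 8.12 (1.69 ± 0.16), and Mbtps1, the protease that cleaves ATF6, differed by -0.21 ± 0.065. Of 17 translocon and secretory entry genes 7 were higher and 1 lower. That split reversed under total-count scaling, to 3 higher and 9 lower, so no direction is given for the list. Its 3 genes with the smallest p were Sec24d (1.6 ± 0.13), a coat protein of ER exit, Spcs2 (0.42 ± 0.043), of the signal peptidase, and Ssr3 (0.41 ± 0.053), of the translocon-associated complex.

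Of 20 ATF4 and ISR targets tested, 13 were higher in VAT and 2 lower (median 0.55), where 29.1% and 30% of all genes were. Under total-count scaling 11 were higher and 4 lower (median 0.34). Ppp1r15a, which directs eIF2alpha dephosphorylation, was at 1494 CPM in VAT and 30.6 in spleen (5.63 ± 0.099), and Slc3a2, an amino acid transporter subunit, differed by 0.96 ± 0.064. The transcription factor Atf3 averaged 136 CPM in VAT and 0.138 in spleen, below the level of 3 reads in a spleen library (0.515 to 0.923 CPM), so no fold is given. 5 of 9 eIF2alpha kinase, subunit and phosphatase genes were higher and none lower (3 and 2 under total-count scaling), among them Ppp1r15b (0.51 ± 0.063), Eif2s1 (0.42 ± 0.056) and Eif2ak1 (0.40 ± 0.068). Beside these values, 19 of 20 early-response and heat shock genes were also higher in VAT. Their summed level was 1726 to 2539.9 (median 2034) CPM in spleen and 19708 to 37106 (median 25975) in VAT, and their part in the tissue differences was not tested. Without the libraries high in plasma cell markers, 8 chaperones were higher and 2 lower, 5 oxidoreductases higher, 6 degradation genes higher and 3 lower (median 0.04), 2 sensors higher and 1 lower, and 9 of 22 ATF4 targets higher and 1 lower (median 0.46). Ppp1r15a and Atf3 are themselves rapidly induced genes.

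**Figure D2:**
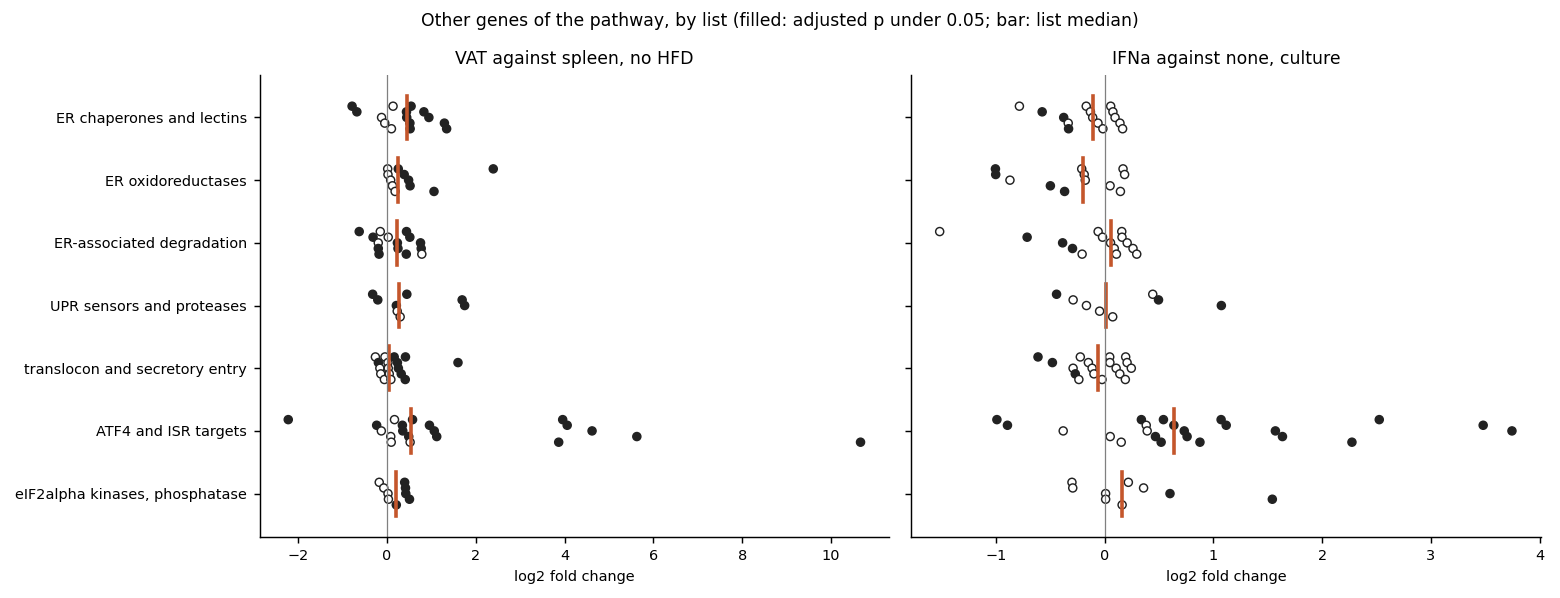
Each point is 1 gene of a pathway list at its log2 fold change (horizontal axis), for VAT against spleen without HFD (left) and for IFNa against none in culture (right), filled where the adjusted p was under 0.05, and the bar is the list median. In the left panel most filled points of the chaperone, oxidoreductase and ATF4 lists lie right of 0, and the point farthest right is Atf3, whose spleen level was 0.138 CPM; in the right panel the ATF4 list lies mostly right of 0 and the filled oxidoreductase points left of it.

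In spleen Tregs, Txndc5 was higher on HFD than on NCD, and none of the other 9 genes was called. At week 2, spleen Txndc5 was at 24.7, 28.1 and 49.5 CPM on NCD and at 64.4, 70.2 and 61.8 on HFD, without overlap, which was so for 13.6% of all genes. At week 4 it was at 46.6 and 41.3 on NCD and at 85.7, 73.3 and 106 on HFD, again without overlap (26.9% of all genes). At week 8 it was at 42.0, 69.1 and 61.1 and at 129, 148 and 62.0, and at week 16 at 71.6, 52.2 and 42.8 and at 87.6, 75.2 and 45.6, both with overlap. The mean of the weekly log2 differences was 0.81 ± 0.15 (11 NCD and 12 HFD libraries), edgeR adjusted p = 0.0118, where 0.933% of all genes were called. In no single week did it pass: the weekly differences were 0.92, 1.01, 0.98 and 0.32, with edgeR adjusted p of 0.353, 0.183, 0.663 and 0.894. The call was lost without the second week 4 NCD library (0.78, edgeR adjusted p = 0.0581). It held without the 3 spleen libraries high in plasma cell markers, at 0.79 (edgeR adjusted p = 0.0165).

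The remaining folding genes had small positive differences in spleen that did not pass. Mean differences over weeks were 0.15 ± 0.062 for Hspa5, 0.20 ± 0.062 for Hsp90b1, 0.20 ± 0.058 for Calr, 0.11 ± 0.045 for Pdia3, 0.14 ± 0.059 for Pdia4 and 0.17 ± 0.067 for Pdia6 (log2, with SE), with edgeR adjusted p from 0.0983 to 0.267. The HFD group mean was above the NCD group mean in 4 of 4 weeks for Hspa5, Hsp90b1, Pdia3, Pdia4, Pdia6, Txndc5 and Atf4, and in 3 of 4 for Calr. For Xbp1 it was above in 2 of 4 weeks and for Ddit3 in 0 of 4, and neither passed (log2 0.22 ± 0.14 and -0.17 ± 0.11). By DESeq2, Hsp90b1 (0.21, adjusted p = 0.0477) and Calr (0.20, adjusted p = 0.0318) passed in addition to Txndc5. Single weeks called none of the 10 genes in spleen, where 0.0272% (week 2), 1.24% (week 4), 0% (week 8) and 0% (week 16) of all genes were called; the number of the 10 with an unadjusted p under 0.05 was 2, 2, 3 and 2. Over the mean of weeks that number was 7. By DESeq2 the weekly count was 0 as well. Among the other lists, Dnajb11, a BiP cochaperone, was higher at week 4 (1.89 ± 0.36). Its call was lost without the second NCD library of that week (edgeR adjusted p = 0.425), where 0 genes in all were called. Sesn2, a stress-induced regulator of growth signalling, was higher over the mean of weeks (0.95 ± 0.23), a call that held in 10 of 23 refits that each left out 1 library.

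In VAT, no week of HFD moved any of the 10 genes past the threshold, also at week 16, where 9.24% of all genes were called. At weeks 2, 4 and 8 the share of all genes called was 0.0565%, 0.0212% and 1.33%. By edgeR, 1, 2, 2 and 1 of the 10 had an unadjusted p under 0.05 at weeks 2, 4, 8 and 16, and 2 over the mean of weeks. The gene nearest to a call was Atf4. At week 4 it was at 292, 290.3 and 291 CPM on NCD and at 239.5 and 201 on HFD, at week 8 at 257, 242 and 242 and at 192, 219 and 207, and at week 16 at 289 and 227 and at 201, 218 and 182. In each of these 3 weeks every HFD library was below every NCD library, which was so in either direction for 26.5%, 18.2% and 36.8% of all genes tested. At week 2 the values overlapped, at 192, 270.3 and 250.3 on NCD and 264, 296 and 249.5 on HFD. The mean of the weekly log2 differences was -0.21 ± 0.063, 95% interval -0.33 to -0.09, edgeR adjusted p = 0.0532, where 4.2% of all genes were called. It passed by DESeq2 (-0.21, adjusted p = 0.038) and by limma voom (-0.22, adjusted p = 0.0441).

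In VAT over the mean of weeks, the 95% interval of the log2 difference was -0.07 to 0.16 for Hspa5, -0.13 to 0.12 for Hsp90b1, -0.05 to 0.18 for Pdia3, -0.05 to 0.16 for Pdia4 and -0.10 to 0.22 for Pdia6, and 0.01 to 0.28 for Calr (edgeR adjusted p = 0.289). Wider intervals were found for Txndc5 (-0.88 to 0.11), Xbp1 (-0.28 to 0.28) and Ddit3 (-0.29 to 0.22). At week 16, where 4.93% of all genes were called lower and 4.31% higher, these other genes of the pathway were lower in HFD VAT: Ero1l (-1.46 ± 0.25), Atf6 (-0.93 ± 0.17), Dnajb9 (-0.68 ± 0.18), Herpud1 (-0.59 ± 0.11), Derl1 (-0.44 ± 0.11), Spcs2 (-0.43 ± 0.1), Ppp1r15a (-0.70 ± 0.16) and Atf3 (-2.36 ± 0.64). Phgdh, of serine synthesis, and Eif2ak2, the interferon-inducible eIF2alpha kinase PKR, were higher (0.73 ± 0.21 and 0.70 ± 0.22). With only 2 NCD libraries at week 16, the calls of Ero1l, Atf6 and Herpud1 held when each of the 5 libraries was left out. Those of Derl1, Spcs2 and Ppp1r15a were lost without the NCD library numbered 2, and those of Dnajb9, Atf3, Phgdh and Eif2ak2 without either NCD library and without 1 or 2 of the HFD libraries. By list, the counts lower at week 16 were 1 of 15 chaperones, 1 of 11 oxidoreductases, 2 of 15 degradation genes, 1 of 8 sensors, 1 of 17 translocon genes and 2 of 19 ATF4 targets. In the same comparison 11 of 20 early-response and heat shock genes and 5 of 6 VAT Treg markers were lower, and their part in these differences was not tested. Over the mean of weeks, Dnajb9 was lower (-0.34 ± 0.085) and the thioredoxin Txndc11 higher (0.47 ± 0.12), and neither passed without the libraries high in plasma cell markers.

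Of the 10 genes, Txndc5 passed the test for a difference between tissues in the response to HFD, and the other 9 did not. The VAT effect minus the spleen effect, averaged over weeks, was -1.20 ± 0.3 on the log2 scale, edgeR adjusted p = 0.0212, where 2.44% of all genes were called. Txndc5 in VAT ranged from 38.2 to 231 normalised CPM (median 70.2) on NCD at weeks 2 to 16 and from 38.1 to 105 (median 54.4) on HFD, a log2 difference of -0.39 that did not pass (edgeR adjusted p = 0.5). Without the libraries high in plasma cell markers this difference was 0.16, of the opposite sign (edgeR adjusted p = 0.802). One NCD VAT library, the second of week 4, stood apart at 231 CPM. Atf4 had a difference of effects of -0.33 ± 0.1, edgeR adjusted p = 0.0744. At week 16 the difference of effects passed for none of the 10 genes, where 4.46% of all genes were called and 1 of the 10 had an unadjusted p under 0.05 by edgeR.

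Plasma cells, which secrete antibody, express Txndc5 and Xbp1 at high levels, and the summed level of 9 plasma cell markers varied between libraries. In the 14 VAT libraries without HFD the sum was 3.97 to 3286 (median 178) CPM, in 11 VAT libraries with HFD 4.27 to 1379 (median 14.7), in 14 spleen libraries without HFD 3.17 to 1049.5 (median 8.97) and in 12 spleen libraries with HFD 3.76 to 834 (median 18.1). The library with the most Txndc5 also had the highest sum, 3286 CPM. A sum of 3062 CPM accompanied Txndc5 at 70.2 in the second NCD VAT library of week 2. Among the markers, Igkc reached 2101 CPM and Jchain 1165 CPM in VAT without HFD. Mzb1, another of the 9 markers, was at 0 in 19 of 25 VAT libraries and reached at most 3.42 CPM. Only 8 of those 25 libraries had marker sums of 100 CPM or more, and the Mzb1 maximum of 3.42 CPM covers these 8 as well. Values of the remaining markers are not given here. Igkc, Jchain and Mzb1 were named after their values were seen, and the share of plasma cell RNA was not tested. Without the 11 libraries at 100 CPM or more, the Txndc5 difference of effects was -0.64 and did not pass (edgeR adjusted p = 0.263). It also failed to pass by limma voom (-1.10, adjusted p = 0.0712), without the second NCD spleen library of week 4 (-1.17, edgeR adjusted p = 0.0546) and without NCD VAT library 2 of week 16 (-1.14, edgeR adjusted p = 0.0523).

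**Figure D3:**
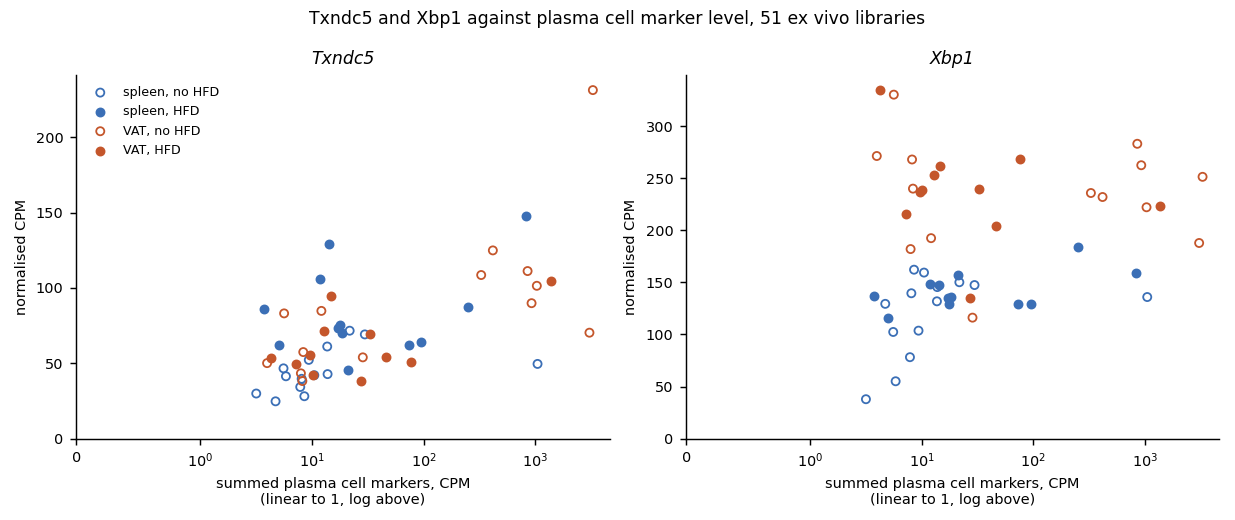
Each point is 1 of 51 ex vivo libraries, with the summed plasma cell marker level in CPM on the horizontal axis (linear to 1, log above) and Txndc5 (left) or Xbp1 (right) in normalised CPM on the vertical axis, coloured by tissue and filled for HFD. The highest Txndc5 point, 231 CPM, has the highest marker sum, while spleen HFD points at sums under 20 CPM reach 129 CPM.

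Over time alone, none of the 10 genes passed in a test over weeks. The share of all genes called was 0.53% in VAT without HFD, 8.16% in VAT with HFD, 1.18% in spleen without HFD and 0.129% in spleen with HFD, and 0, 3, 2 and 3 of the 10 had an unadjusted p under 0.05 by edgeR. With HFD in VAT, mean Atf4 was 269.7, 220.2, 206 and 200.5 CPM at weeks 2, 4, 8 and 16 (edgeR adjusted p = 0.0591), and mean Hspa5 was 1305, 1125, 1089.7 and 984 (edgeR adjusted p = 0.1). Both were highest at week 2 and lowest at week 16, but neither passed by edgeR, whereas both passed by limma voom (adjusted p = 0.048 and 0.0475). In spleen with HFD, mean Hspa5 was 739, 672, 931 and 877 CPM (edgeR adjusted p = 0.236).

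Cultured VAT Tregs without IFNa were set against ex vivo VAT Tregs of week 0 (3 libraries each), which differ in mouse line, age, IL-33 injection, sort and culture, and these cannot be told apart. 6 of the 10 genes were higher in culture and Atf4 was lower, where 49.5% of all genes were called, 23.8% higher and 25.7% lower. Pdia4 was at 298, 283 and 279.7 CPM ex vivo and at 705, 735 and 715 in culture, the largest difference of the 10 genes (1.27 ± 0.095, edgeR adjusted p = 1.63e-12). Calr went from 341, 278 and 281 to 609.9, 675 and 595 (1.01 ± 0.13), and Pdia6 from 295, 210.0 and 241 to 506, 551 and 489 (1.00 ± 0.15). The groups did not overlap for these genes, nor for Hsp90b1 (0.93 ± 0.12), Xbp1 (0.84 ± 0.25) and Pdia3 (0.39 ± 0.11), which were higher as well; 64.6% of all genes did not overlap. Hspa5, the chaperone most often used as a readout of ER stress, was at 1309, 1139 and 1109 ex vivo and 1267, 1435 and 1247 in culture (0.09 ± 0.11, 95% interval -0.12 to 0.31, edgeR adjusted p = 0.498). Atf4 was lower, at 281, 258 and 263 ex vivo and 168, 194 and 189.9 in culture (-0.59 ± 0.12). Ddit3 and Txndc5 did not pass (0.16 ± 0.22 and 0.43 ± 0.42), although the Txndc5 groups did not overlap and it passed when only these 6 libraries were fitted (0.40, edgeR adjusted p = 0.00297). Plasma cell markers summed to 328, 12.2 and 1034 CPM in the ex vivo libraries and to 887, 178 and 184 in the cultures, and their part in this comparison was not tested.

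Higher in culture were 12 of 17 translocon genes (none lower), led by Ssr2 (2.23 ± 0.15), Sec61a1 (1.5 ± 0.11) and Ssr4 (1.80 ± 0.14), and 9 of 15 chaperones (2 lower), among them Creld2 (1.78 ± 0.17), Manf (1.71 ± 0.17) and Fkbp2 (2.58 ± 0.25). Of 12 oxidoreductases 7 were higher and 1 lower, with Prdx4 at 2.05 ± 0.22, P4hb, the founding disulfide isomerase, at 1.06 ± 0.12 and Tmx3 at -1.46 ± 0.14. Degradation genes split 6 higher to 4 lower, and the sensors 0 higher to 3 lower: Atf6 (-1.33 ± 0.16), Mbtps2 (-0.79 ± 0.24) and the PERK gene Eif2ak3 (-1.11 ± 0.35). Of 23 ATF4 targets 10 were higher and 3 lower, Ppp1r15a by -5.11 ± 0.18 and Phgdh by 1.95 ± 0.17. Over all genes, 23.8% were called higher in culture and 25.7% lower. Of 20 early-response and heat shock genes, 16 were lower and 2 higher in culture, and their part in the differences was not tested.

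With IFNa in the culture, Ddit3, Atf4 and Hspa5 were higher and Txndc5, Xbp1 and Hsp90b1 lower: 3 of the 10 genes were higher and 3 lower, where 21.7% of all genes were called, 10.6% higher and 11% lower. Ddit3 was at 27.1, 20 and 25.0 CPM without IFNa and at 140.4 and 151 with it, 2.65 ± 0.13 on the log2 scale, edgeR adjusted p = 3.48e-12. Both IFNa values lay above every ex vivo library, the highest of which was 51.2 CPM. Atf4 was at 168, 194 and 189.9 without and at 288 and 356 with IFNa (0.85 ± 0.093, edgeR adjusted p = 8.15e-07). Hspa5 was at 1267, 1435 and 1247 and at 1406 and 1709, with overlap, and passed in the full fit (0.29 ± 0.08, edgeR adjusted p = 0.0132). That call was lost without culture library 3 of the group without IFNa (0.25, edgeR adjusted p = 0.113) and without the second IFNa library (0.16, edgeR adjusted p = 0.26).

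Lower with IFNa were Txndc5, Xbp1 and Hsp90b1, and in each of them both IFNa libraries lay below all 3 others, which was so in either direction for 47.6% of all genes. Txndc5 was at 128, 144 and 139 without and at 70.1 and 57.3 with IFNa (-1.07 ± 0.11, edgeR adjusted p = 6.32e-07). Xbp1 was at 392, 391 and 425 and at 306 and 234 (-0.53 ± 0.11, edgeR adjusted p = 0.00144). Hsp90b1 was at 1208, 1346 and 1153 and at 780.3 and 906 (-0.51 ± 0.08, edgeR adjusted p = 8.22e-05). Hspa5 and Hsp90b1, both lumenal chaperones with an ERSE in the promoter window, had calls of opposite sign. Not passing were Calr (-0.19 ± 0.079), Pdia3 (-0.14 ± 0.073), Pdia4 (0.06 ± 0.076) and Pdia6 (-0.24 ± 0.09). Pdia6 passed as lower under 5 other settings, among them RLE normalization (-0.25, edgeR adjusted p = 0.0478), and Calr as lower under total-count scaling (-0.24, edgeR adjusted p = 0.0249).

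**Figure D4:**
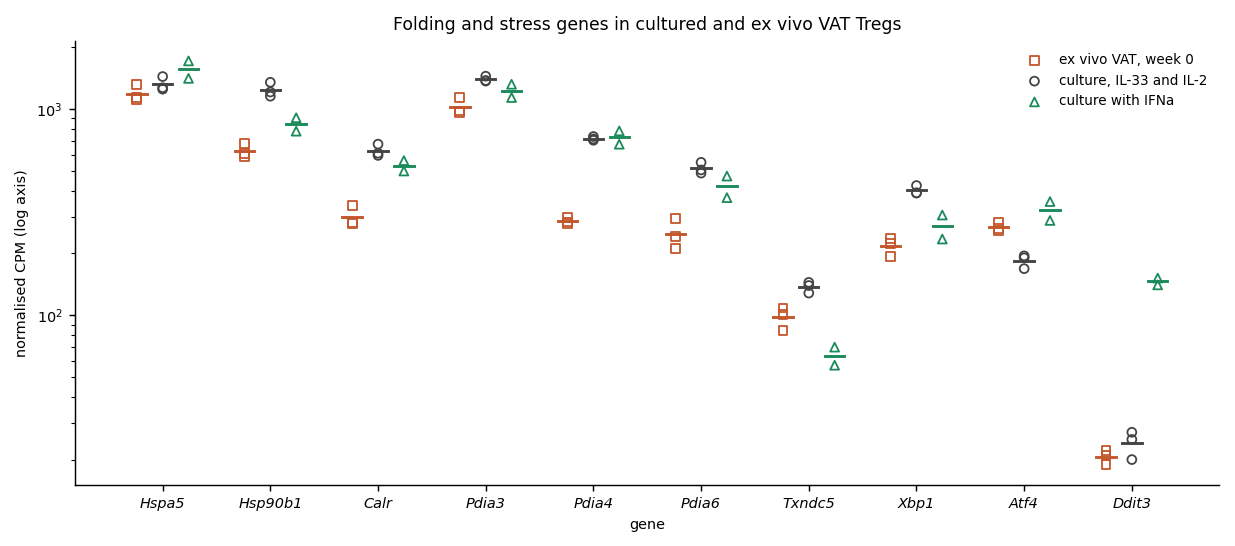
Normalised CPM on a log axis (vertical) of the 10 genes (horizontal) in ex vivo VAT Tregs of week 0 (squares), culture with IL-33 and IL-2 (circles) and culture with IFNa (triangles), 1 symbol per library and a bar at each mean. The IFNa triangles of Ddit3 sit at 140.4 and 151 CPM above circles at 27.1, 20 and 25.0, and those of Txndc5, Xbp1 and Hsp90b1 sit below the circles.

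Of 23 ATF4 and ISR targets, 16 were higher with IFNa, 2 were lower and 5 did not pass (10.6% of all genes were called higher), with a median log2 difference of 0.64 beside 0.01 over all genes. Asns, the asparagine synthetase, was at 58.0 CPM without and 175 with IFNa (1.63 ± 0.1), Trib3, a pseudokinase induced by ATF4 and CHOP, at 47.9 and 138 (1.57 ± 0.11), and Slc3a2 at 214 and 450.1 (1.12 ± 0.082). When each culture library was left out in turn, the list's count was 12 to 17 higher and 0 to 2 lower. In the 4 ER lists of folding, degradation and entry genes no member was called higher, whereas leaving out 1 library gave up to 1 degradation gene and up to 1 translocon gene. Over all genes, 11% were called lower, the share to set beside the counts lower in these lists. 0 of 15 chaperones were higher and 3 lower (Sdf2l1 -0.57 ± 0.11, Manf -0.38 ± 0.1, Dnajc10 -0.33 ± 0.1), and 0 of 12 oxidoreductases were higher and 4 lower, Ero1l (-1.0 ± 0.1), Ero1lb (-1.0 ± 0.2) and Erp29 (-0.50 ± 0.093) among them. Degradation genes were 0 higher and 3 lower of 15, among them Herpud1 (-0.39 ± 0.1) and Ube2j1 (-0.30 ± 0.1), and translocon genes 0 higher and 3 lower of 18, Spcs3 (-0.61 ± 0.092), Ssr1 (-0.48 ± 0.088) and Sec61b (-0.27 ± 0.088). Of these genes, Manf, Dnajc10, Herpud1, Ube2j1 and Sec61b lost their call without at least 1 culture library. Of the sensors, Ern1 (1.07 ± 0.15) and Atf6b (0.50 ± 0.14) were higher and Atf6 lower (-0.44 ± 0.16), and the calls of Atf6b and Atf6 held in 3 and 1 of 5 refits without 1 library. Of the eIF2alpha list, the interferon-inducible kinase gene Eif2ak2 (1.54 ± 0.14) and Ppp1r15b (0.60 ± 0.1) were higher. In the same libraries Foxp3 was lower (-1.11 ± 0.073), and the plasma cell marker sum was 178 to 887 (median 184) CPM without and 159 to 174 with IFNa.

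Ddit3 and Hsp90b1 share exon bases with other genes. The exons of Ddit3 share 68 bases (3.97% of its exon length) with Mars1, the methionyl-tRNA synthetase gene on the opposite strand. Mars1 was higher with IFNa (0.71 ± 0.097), and the strand setting of the counting is not stated in the labels. Ex vivo, Mars1 was also higher in VAT than in spleen (0.31 ± 0.085), where Ddit3 was lower. The part of Mars1 reads in the Ddit3 counts was not tested. Hsp90b1 shares 415 bases (10.3%) with the pseudogene 1810014B01Rik, which reached at most 12.2 CPM in any library.

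**Figure D5:**
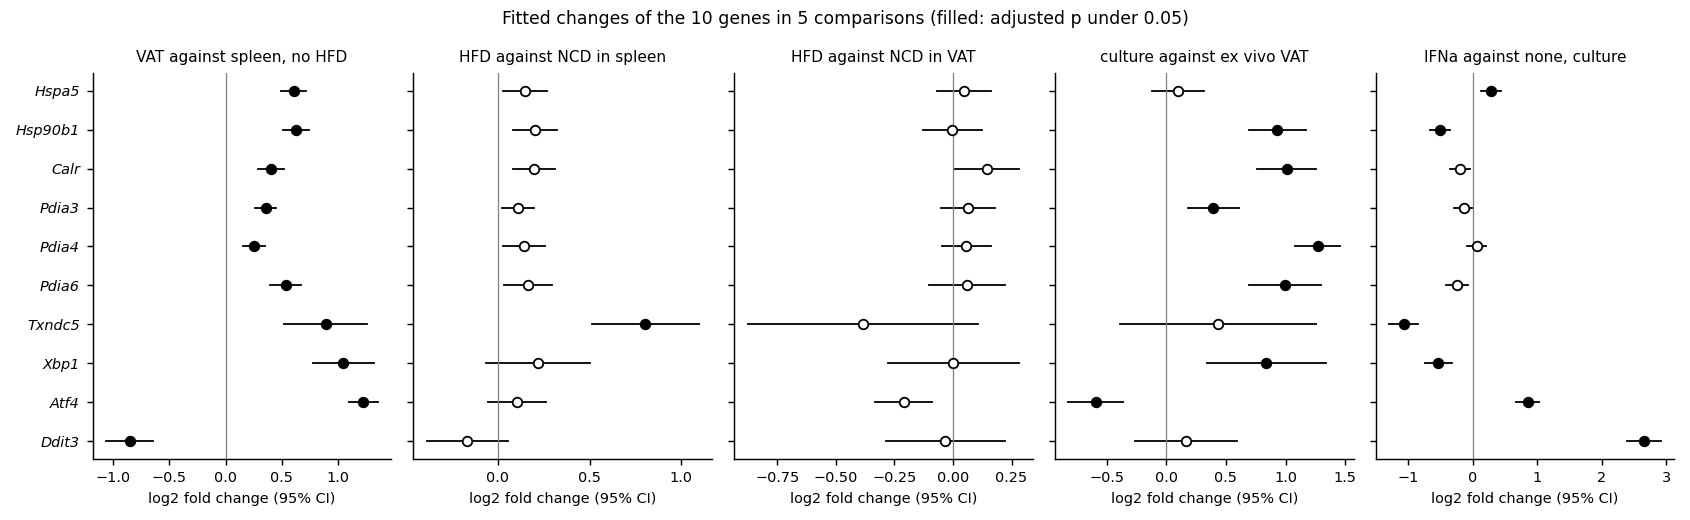
Log2 fold changes (horizontal axes, which differ between panels) of the 10 genes in 5 edgeR comparisons, with 95% intervals and filled circles where the adjusted p was under 0.05; the diet panels are means over weeks. All 10 circles are filled for VAT against spleen, 1 for diet in spleen, 0 for diet in VAT, 7 for culture against ex vivo VAT and 6 for IFNa.

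Across the 18 ex vivo group means, which join 2 tissues, the 45 pairs of the 10 genes had a median Pearson r of 0.79 (36 positive). Within the 9 VAT groups the median was 0.027 and within the 9 spleen groups 0.49. The genes most like Hspa5 over the 18 means were Icam1 (r = 0.973), Capzb (0.963), Rab8b (0.961), Lcp1 (0.961) and Psen2 (0.959), and those most like Ddit3 were Atp5j2 (0.965), Usp24 (0.962), Tespa1 (0.958), Timm10b (0.957) and Ntrk3 (0.955). Of 15 tested genes with an ERSE window that are not among the 10, 4 were higher in VAT than in spleen and 5 lower, where 29.1% and 30% of all genes were. In the IFNa comparison 1 of 13 such genes was higher and 1 lower (10.6% and 11% of all genes), and in culture against ex vivo VAT 5 of 15 were higher and 1 lower (23.8% and 25.7%).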

How the data were processed

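RNA of 1000 double-sorted cells per library was captured by oligo(dT), amplified for 18 PCR cycles and sequenced as paired reads of 38 bases, per the labels' protocols. The authors aligned reads with STAR 2.7.3a to mm10 and counted them per gene with featureCounts, per the submitters' processing notes; the annotation, strand setting and handling of multi-mapping reads are not stated in those sources. The deposited values are raw whole-number counts. Normalised CPM were computed from them with 1 TMM scaling over the 56 libraries.

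Tests used edgeR 4.0.16 quasi-likelihood fits (R 4.3.3) with TMM factors and filterByExpr, in 5 fits: VAT, spleen, both tissues, cultures, and VAT with cultures. Groups of a fit share 1 estimate of spread. Contrasts of group means were taken, with Benjamini-Hochberg adjustment over all genes of the fit (12604 to 15601) and calls at an adjusted p under 0.05. Intervals are normal 95% intervals from the SE. The code was tested on simulated counts. DESeq2 1.42.0 and limma 3.58.1 voom, RLE and total-count scaling, no filter, fewer groups, replicate blocks and leaving out libraries were the alternatives.

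The 10 genes and all lists were chosen with earlier results of these data known. Named genes are the 10, the label checks, the 3 called genes of each list with the smallest p in a comparison, and the 5 genes most like Hspa5 and Ddit3; of the genes this rule names, 1 list gene is not reported here. Of 122 list symbols, 2 were matched by an older name. Mars1, 1810014B01Rik, Igkc, Jchain and Mzb1 are named outside that rule, after their values were seen. Replicates of a group always differed beyond counting noise (52 pairs, chi-square per degree of freedom at least 4.13). Same-numbered libraries did not deviate together (median residual correlation 0.0072 over 24 spleen and VAT pairs). With 2 or 3 libraries a group, that check cannot show whether libraries share a mouse or culture. No label says that numbers pair libraries, so the main fits did not use them as pairs. A count of 0 allows up to 3 reads, and such limits cover counting error only.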

Additional observations from a re-analysis of the deposited data

Results flagged for a closer look

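The difference between tissues in the Txndc5 response to HFD is listed because the difference itself passed a test. The VAT effect minus the spleen effect, averaged over the 4 weeks, was -1.20 on the log2 scale (edgeR adjusted p = 0.0212). It combines a rise in spleen (0.81 ± 0.15 SE) with a VAT difference that did not pass (-0.39 ± 0.25 SE). Without the libraries high in plasma cell markers the difference of effects was -0.64 (edgeR adjusted p = 0.263) and the VAT difference 0.16. The call was also lost by limma voom (adjusted p = 0.0712), with the replicate block within diet and week (edgeR adjusted p = 0.125), and without NCD spleen library 2 of week 4 or NCD VAT library 2 of week 16. At week 16 the difference of effects was 0.06 ± 0.6 (SE).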

How the results depend on the processing

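Over all comparisons and alternatives, 3671 of 3720 refitted values of the 10 genes kept their side of the threshold, 40 passed where they had not and 9 no longer passed. The sign changed in 110 of 2930 values that have one, 0 of them called in either fit, with reported log2 differences of at most 0.39 in size. The number of the 10 genes called moved as follows. HFD in VAT over the mean of weeks went from 0 to 1 (Atf4) under DESeq2, limma voom, total-count scaling and the replicate block. HFD in spleen went from 0 to 1 (Txndc5) without the low-count filter at weeks 2, 4 and 8 and with only the groups compared at week 4, and over the mean of weeks from 1 to 3 by DESeq2. The difference of HFD effects went from 1 to 0 (Txndc5) under limma voom, under the replicate block within diet and week (-1.18, edgeR adjusted p = 0.125) and without the libraries high in plasma cell markers. VAT over weeks with HFD went from 0 to 1 without the filter, by DESeq2, with the replicate block and with only the groups compared, and to 2 by voom. Spleen over weeks went from 0 to 1 without HFD and to 2 with HFD when unfiltered. Leaving out 1 library gave 0 to 1 called for VAT week 16, the VAT mean and VAT over weeks with HFD, 0 to 1 for spleen over weeks without HFD, 0 to 2 for the spleen mean and the difference of effects, 5 to 6 for IFNa, 10 for the tissues, 7 for culture against VAT and 0 elsewhere. No label says that the numbers pair the libraries. The replicate block also added Calr and Pdia6 as lower with IFNa.

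Counts over all genes moved by over 1.5 times in most diet comparisons: over the alternatives other than leaving out a library they were 4 to 162 (VAT week 2, reported 8), 2 to 115 (week 4, reported 3), 163 to 465 (week 8, reported 189), 789 to 1544 (week 16, reported 1309) and 146 to 825 (mean, reported 595), and in spleen 4 to 85 (reported 4), 139 to 307 (reported 182), 0 to 26 (reported 0) and 0 to 26 (reported 0) by week and 20 to 483 (mean, reported 137). The differences of effects gave 100 to 797 (reported 380) and 378 to 941 (week 16, reported 696), and weeks alone 57 to 761 (reported 75), 1018 to 1728 (reported 1156), 138 to 584 (reported 173) and 2 to 260 (reported 19). Leaving out 1 library gave 2 to 54, 0 to 6, 37 to 248, 643 to 1273 and 372 to 657 in VAT (weeks 2, 4, 8 and 16 and mean), 0 to 2, 0 to 268, 0 to 7, 0 to 1 and 16 to 283 in spleen, 216 to 477 and 386 to 762 for the differences of effects, and 5 to 325, 781 to 1086, 88 to 242 and 0 to 87 for weeks alone. The 0 of spleen week 4 and the 16 of the spleen mean came without NCD library 2 of week 4, the 37 without NCD library 2 of week 8, the 643 without NCD library 3 of week 16 and the 5 without NCD library 2 of week 16. The cause of these changes was not tested. Alternatives on total-count scaling and on plasma cell markers were chosen after seeing the data. With 2 or 3 libraries a group, a weekly interval of Txndc5 in VAT was wide (-1.74 to 0.10 at week 8).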
